A study of Mus musculus with 48 samples.

Results

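The comparison set neural stem cells of late neurogenesis against neural stem cells of early neurogenesis in a massively parallel reporter assay. Such an assay reads many short DNA elements at once: each sits in a reporter plasmid, and its output is the reporter RNA relative to the plasmid DNA found in the same cells. The late group was collected at embryonic day (E) 16 and E17, after in utero electroporation at E15 and E16, and comprised 4 biological samples in 8 libraries. The early group was collected at E13 and E14, after electroporation at E12 and E13, and comprised 5 biological samples in 10 libraries. Each biological sample gave a DNA and an RNA library, so that 18 of the 48 libraries of the study entered, and these make up 4 of its 10 table columns. All groups came from the somatosensory cortex of C57BL/6JRj embryos, were collected 24 h after electroporation and were sorted for Pax6. Intermediate progenitors sorted for Tbr2 and neural stem cells of E15 were used as side measurements. The assay measured plasmids and no transcriptome, so the sorted cells could not be checked against other marker genes. No source used here says whether embryos were pooled within a sample.

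Elements entered if they had a value in all 4 columns. This held for 11204 of 11709 elements, of which 10227 were not scrambled controls, and 505 were left out. The elements comprised 2999 of 3125 of the class named NSC, 2867 of 2991 of IPC, 2586 of 2763 of Mature, 900 of 931 of E14, 875 of 903 of Shadow and 977 of 996 of Scrambled. The names of NSC, IPC and Mature elements also carry a label, asc, desc or unc. No source used here defines the class names or the labels beyond their wording.

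Neural stem cells of the cortex, the Pax6-positive radial glia of the ventricular zone, divide throughout neurogenesis. They give rise to deep-layer neurons early and to upper-layer neurons late, directly or through Tbr2-positive intermediate progenitors, and turn to making glia towards birth. Enhancers are the stretches of DNA through which transcription factors set the output of genes, and a reporter assay at 2 ages asks whether the same DNA drives more or less RNA in the older cells.

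Only E14 and Shadow names carry coordinates. RefSeq promoter sequence covered a long stretch of 9 E14 elements, at least 180 bases each, so these are the elements whose letters can be shown. The elements at Arvcf and Rab17 had the lowest late minus early differences of the 9 and those at Prelp and Calr4 the highest. They are shown to give an idea of the DNA tested. Each sequence is on the strand of its gene, 5′ to 3′, and the capital letter, where there is one, marks the first base of the gene. RefSeq positions are those of GRCm38.p6, the assembly behind mm10.
Arvcf, chr16:18380560-18380825, plus strand: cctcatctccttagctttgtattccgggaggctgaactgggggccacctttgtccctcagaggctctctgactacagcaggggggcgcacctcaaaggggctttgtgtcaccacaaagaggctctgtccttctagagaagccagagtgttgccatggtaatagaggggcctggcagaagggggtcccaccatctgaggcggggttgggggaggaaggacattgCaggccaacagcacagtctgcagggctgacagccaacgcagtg
Rab17, chr1:90967660-90967917, minus strand: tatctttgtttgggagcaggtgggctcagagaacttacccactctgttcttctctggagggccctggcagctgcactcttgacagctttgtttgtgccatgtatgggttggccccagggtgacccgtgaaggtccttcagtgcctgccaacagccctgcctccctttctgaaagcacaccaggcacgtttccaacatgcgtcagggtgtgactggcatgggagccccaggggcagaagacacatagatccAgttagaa
Calr4, chr4:109235057-109235311, plus strand: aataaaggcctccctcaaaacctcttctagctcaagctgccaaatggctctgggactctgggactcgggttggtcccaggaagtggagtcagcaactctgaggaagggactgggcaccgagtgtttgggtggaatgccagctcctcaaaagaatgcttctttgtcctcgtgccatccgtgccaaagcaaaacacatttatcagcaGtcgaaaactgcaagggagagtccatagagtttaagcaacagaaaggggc
Prelp, chr1:133921451-133921651, minus strand: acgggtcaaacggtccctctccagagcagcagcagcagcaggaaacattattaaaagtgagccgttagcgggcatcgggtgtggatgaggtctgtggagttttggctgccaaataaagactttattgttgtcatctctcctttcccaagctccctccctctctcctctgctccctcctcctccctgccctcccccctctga

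The Arvcf stretch is a whole element, 266 bases long with 59.0% G or C. Its gene encodes a catenin of cell junctions. Its activity, the log2 of the value over the scrambled controls of the same column, was 0.58, 2.23, 1.27, -0.81 and 1.45 from E13 to E17. Late minus early, the mean of E16 and E17 minus the mean of E13 and E14, was -1.08, and the ages overlapped. The Rab17 element, at a small GTPase gene, stood at 2.25, 0.54, -0.43, -0.46 and 1.12 over the same ages (late minus early -1.07). Here too the late and early values overlapped. The Calr4 element stood at -1.36, -1.04, -0.28, -0.65 and -0.76, a difference of 0.49 with both late values above both early values, all under the scrambled mean. The Prelp element, at a gene for a matrix proteoglycan, stood at -0.85, 0.63, 0.53, 1.00 and 0.66 (0.95), again with both late values above both early values. None of these 4 differences reached the limits set by the scrambled controls, given below.

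The deposited table holds 1 activity score per element for each cell type and age, in which the authors combined the biological samples. The spread between animals is therefore unknown. An exact permutation test of 2 late against 2 early columns has 6 splits and allows no two-sided p under 0.333, so no p is given for any comparison between ages. Errors below are standard errors (SE) over elements and cover the sampling of elements only. Beside them stand the differences E16 minus E13 and E17 minus E14, which share no library with each other. The columns were not equally precise. The SD of the scrambled controls on the log2 scale was 1.60, 0.89, 0.94, 1.07 and 0.67 from E13 to E17, and their median score before scaling ran from 0.164 at E13 to 2.37 at E17. Without read or barcode numbers, the depth behind these values is unknown.

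Elements of the NSC class labelled asc had the largest gain in late neural stem cells of the 11 classes and labels compared. Their mean activity was 0.39 in late cells, against 0.10 in early cells, a difference of 0.28 ± 0.03 (SE, 1100 elements). By age the mean was 0.02, 0.19, 0.27, 0.30 and 0.47 from E13 to E17, in the order of age. The difference was 0.29 ± 0.06 for E16 minus E13 and 0.28 ± 0.03 for E17 minus E14. With the other pairing it was 0.45 for E17 minus E13 and 0.12 for E16 minus E14. The steps inside the groups were of similar size, 0.17 between the late ages (E17 minus E16) and 0.17 between the early ages (E14 minus E13). The Scrambled controls differed by 0.01 ± 0.04 (977 elements) between late and early.

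NSC elements labelled desc did not share this difference. They averaged 0.20 in late cells and 0.18 in early cells, a difference of 0.02 ± 0.04 (SE, 1028 elements). The pairs of ages disagreed in sign, with 0.14 ± 0.07 for E16 minus E13 and -0.11 ± 0.04 for E17 minus E14. The mean was 0.06 at E13 and 0.30 at E14, and then 0.25, 0.20 and 0.19 at E15, E16 and E17. The step between the early ages (0.24) was thus the largest difference between any neighbouring ages of this label. NSC elements labelled unc lay between, with 0.38 in late cells and 0.26 in early cells, a difference of 0.11 ± 0.04 (871 elements), and 0.15 and 0.08 in the pairs.

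The labels of the NSC class changed their order between the ages. Elements labelled asc minus those labelled desc stood at -0.04 ± 0.07 at E13 and -0.11 ± 0.04 at E14, then at 0.02 ± 0.04 at E15, 0.11 ± 0.05 at E16 and 0.28 ± 0.03 at E17. The gap differed by 0.27 ± 0.05 between late and early cells, by 0.15 ± 0.09 for E16 minus E13 and by 0.39 ± 0.05 for E17 minus E14. In the pair E16 minus E13 the gap was less than 2 SE. In intermediate progenitors of the same ages the late minus early gap of these elements was 0.03 ± 0.05. There the elements labelled asc differed by 0.08 ± 0.03 between late and early, with -0.01 for E16 minus E13 and 0.16 for E17 minus E14. For the 1081 asc elements with values in both cell types, the difference in neural stem cells exceeded that in intermediate progenitors by 0.20 ± 0.05.

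**Figure D1:**
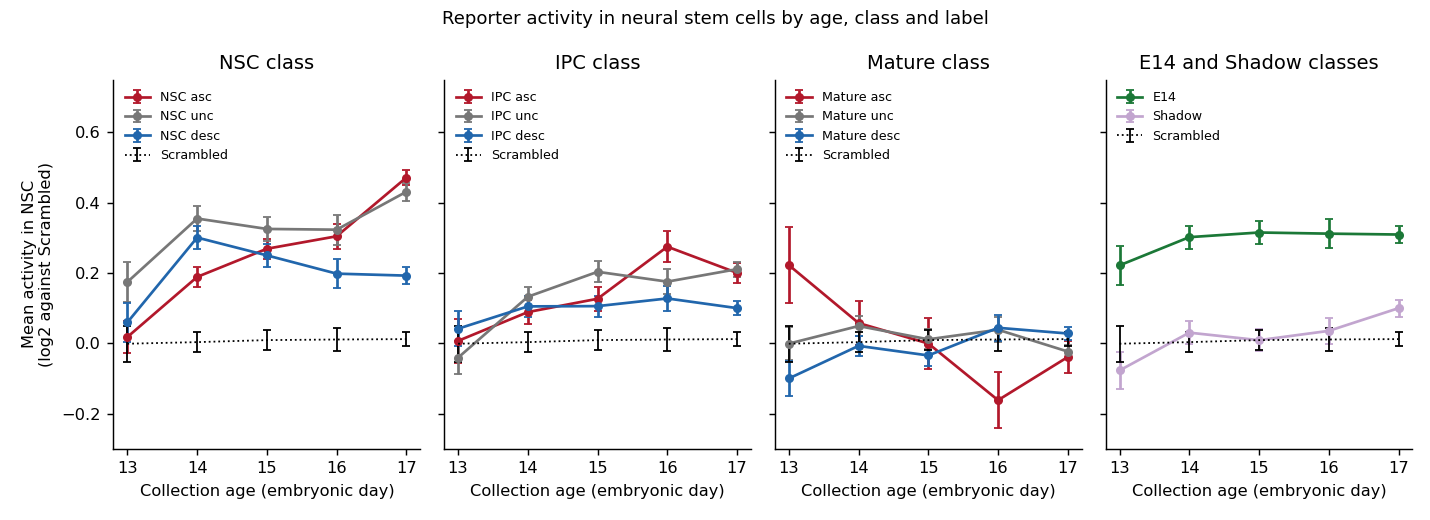
Mean activity of each class and label in neural stem cells (vertical axis, log2 against the Scrambled controls) at each collection age (horizontal axis, embryonic day), with bars of 1 SE over elements. Elements labelled NSC asc run from 0.02 at E13 to 0.47 at E17, those labelled NSC desc peak at 0.30 at E14, and those labelled Mature asc start highest in their class at 0.22 and end at -0.04.

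The gain of the NSC asc elements was not carried by a few of them. Set against the same percentile of the Scrambled controls, their late minus early differences lay higher by 0.45 at the 5th percentile, 0.26 at the 25th, 0.27 at the median, 0.21 at the 75th and 0.22 at the 95th. The median over the elements was 0.31, and 0.04 in the controls. NSC desc elements spread out instead, mainly in the lower tail. Against the controls they stood at -0.22 at the 5th percentile, 0.10 at the 75th and 0.03 at the 95th.

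Counts of elements gave the same order. Of the NSC asc elements, 264 of 1100 (24.0%) had both late values above both early values, against 19.6% of all elements other than scrambled and 17.4% of the Scrambled controls. Both late values lay below both early values for 108 (9.82%), against 14.3% of all elements and 15.7% of the controls. In the NSC desc elements the counts were 174 above and 164 below, near the controls on both sides. The NSC unc elements had 169 (19.4%) above and 106 (12.2%) below.

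IPC elements labelled asc were the next highest. They averaged 0.24 in late and 0.05 in early neural stem cells, a difference of 0.19 ± 0.04 (SE, 701 elements), with 0.27 ± 0.08 for E16 minus E13 and 0.11 ± 0.04 for E17 minus E14. Both late values lay above both early values for 167 of them (23.8%) and below for 93 (13.3%). IPC unc elements stood at 0.19 late and 0.05 early (0.15 ± 0.03, 1083 elements), and IPC desc elements at 0.11 late and 0.07 early (0.04 ± 0.04, 1083 elements). The gap between the IPC labels asc and desc differed by 0.15 ± 0.06 between late and early neural stem cells. In intermediate progenitors it differed by 0.17 ± 0.06, so for the IPC class the value was of similar size in both cell types. The IPC asc elements themselves differed by 0.28 ± 0.05 in intermediate progenitors, with 0.29 and 0.27 in the pairs of ages.

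In the Mature class the label asc went the other way. These 295 elements averaged -0.10 in late cells and 0.14 in early cells, a difference of -0.24 ± 0.08, with -0.38 ± 0.14 for E16 minus E13 and -0.10 ± 0.07 for E17 minus E14. The mean stood at 0.22, 0.06, 0.00, -0.16 and -0.04 from E13 to E17. The E13 column, which holds the highest of these means, is also the one with the widest spread of controls. Mature desc elements averaged 0.04 late and -0.05 early (0.09 ± 0.04, 1063 elements), and Mature unc elements 0.01 late and 0.02 early (-0.02 ± 0.03, 1228 elements). The gap of asc minus desc differed by -0.33 ± 0.09 between late and early, and by -0.13 ± 0.08 in the pair E17 minus E14. Without E13 the gap was -0.20 and the difference of the Mature asc elements -0.16. The difference of the Mature asc elements was largest in their lower tail. Set against the controls it was -0.73 at the 5th percentile, -0.20 at the median and -0.07 at the 95th. In intermediate progenitors the Mature asc elements differed by -0.08 ± 0.08.

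**Figure D2:**
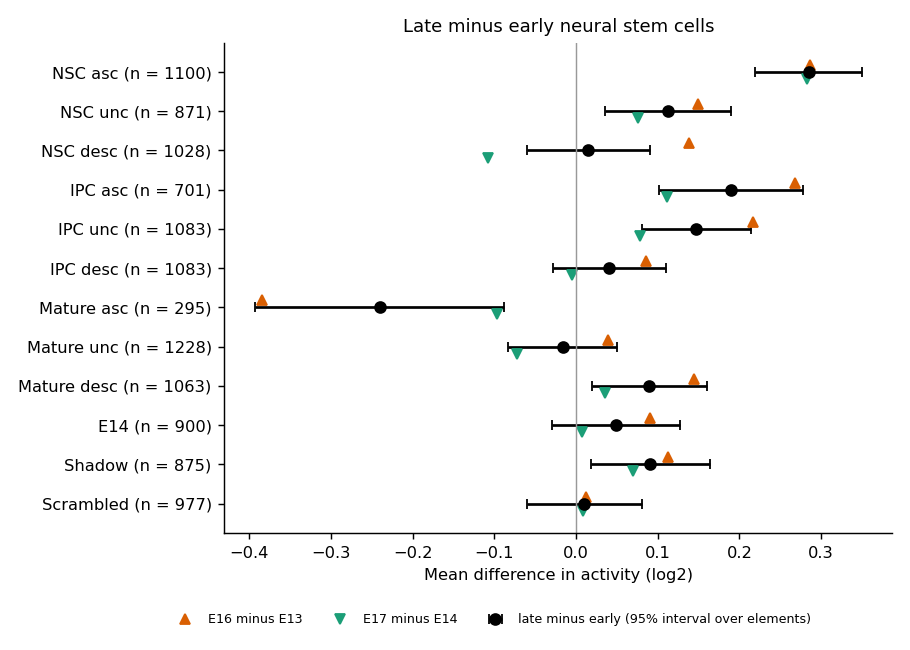
Late minus early activity in neural stem cells (horizontal axis, log2) for each class and label, with 95% intervals over elements as bars and the differences E16 minus E13 and E17 minus E14 as triangles. NSC asc elements stand at 0.28 with both pairs at about the same value, Mature asc elements at -0.24 with both pairs below 0, and the Scrambled controls at 0.01.

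Taken as whole classes, NSC elements averaged 0.32 in late cells and 0.18 in early cells (0.14 ± 0.02, SE over 2999 elements), and IPC elements 0.17 in late cells and 0.06 in early cells (0.12 ± 0.02, 2867 elements). Mature elements averaged 0.01 in late cells and 0.01 in early cells (0.00 ± 0.02, 2586 elements), with the label asc lower and the label desc higher in late cells. For the NSC class the difference was 0.20 ± 0.04 for E16 minus E13 and 0.09 ± 0.02 for E17 minus E14, but 0.00 for E16 minus E14. The step between the early ages, E14 minus E13, was 0.20 in this class and thus larger than late minus early. Without E13 the class difference was 0.04, and without E14 it was 0.24. Among elements whose mean over the 4 columns lay above that of the controls, the NSC class differed by -0.03 and the NSC asc elements by 0.17, while the Scrambled controls chosen in the same way differed by -0.34. This choice used the columns of the difference itself, so these values carry no test.

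E14 elements averaged above the controls in both groups and differed by little between them. They averaged 0.31 in late cells and 0.26 in early cells, a difference of 0.05 ± 0.04 (SE, 900 elements), with 0.09 ± 0.07 and 0.01 ± 0.04 in the pairs. From E14 to E17 the mean lay between 0.30 and 0.32 at each age, and it was 0.22 at E13. Both late values lay above both early values for 180 of them (20.0%) and below for 159 (17.7%), beside 19.6% and 14.3% of all elements. The 510 E14 elements that a protein-coding gene spans differed by 0.03 ± 0.05 and the 390 outside by 0.07 ± 0.06. Shadow elements averaged 0.07 late and -0.02 early, a difference of 0.09 ± 0.04 (875 elements), with 0.11 and 0.07 in the pairs. Leaving out E13 gave 0.037 and leaving out E17 gave 0.059 for the Shadow class, and 0.12 and 0.14 were found without E16 and without E14. In E16 minus E14 it differed by 0.01. For 795 Shadow elements with the coordinates of an E14 element, the E14 member differed by 0.03 ± 0.04 and the Shadow member by 0.08 ± 0.04. The correlation of the 2 differences across these pairs was -0.01, a description over elements measured in the same libraries.

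**Figure D3:**
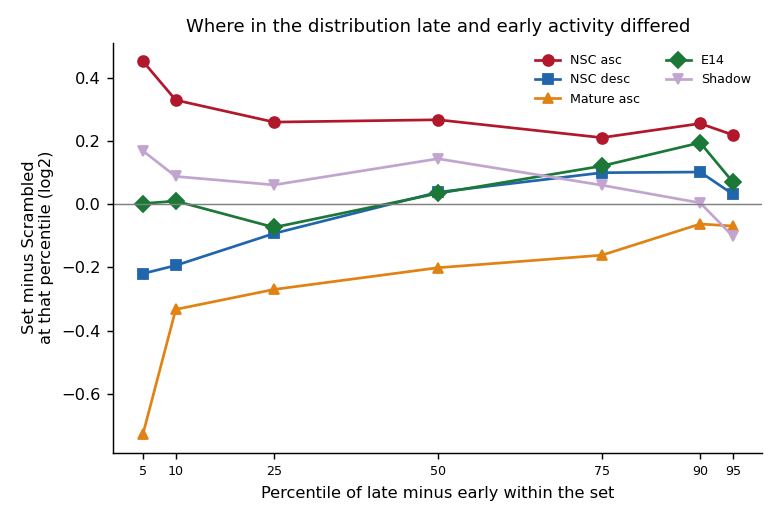
Late minus early difference of 5 sets of elements minus that of the Scrambled controls at the same percentile (vertical axis, log2), from the 5th to the 95th percentile (horizontal axis). NSC asc elements lie above the controls by 0.21 to 0.45 at all 7 percentiles drawn, and Mature asc elements lie below them, most at the 5th percentile (-0.73).

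Elements called at E15 gave a view chosen on a column outside the comparison. The call was the authors' deposited adjusted p under 0.05 in neural stem cells of E15, a cut set here. It held for 12.3% of the elements other than scrambled and 8.02% of the Scrambled controls, and this split was added after values had been seen. Among 163 NSC asc elements called at E15, activity was 0.45 in late and 0.24 in early cells (0.21 ± 0.10). Among 151 NSC desc elements it was 0.22 late and 0.41 early (-0.19 ± 0.11), with -0.08 and -0.30 in the pairs of ages. Among 139 E14 elements called at E15 it was 0.44 late and 0.64 early (-0.20 ± 0.12). The 78 Scrambled controls called at E15 stood at 0.05 late and 0.14 early (-0.08 ± 0.16). NSC asc elements that were not called at E15 (931) differed by 0.30 ± 0.04.

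The authors' adjusted p under 0.05 also called 13.3%, 9.77%, 12.9% and 6.16% of the Scrambled controls at E13, E14, E16 and E17. By these calls, 72 NSC asc elements (6.55%) were called in both late columns, against 3.63% of all elements other than scrambled. In both early columns 26 of them (2.36%) were called, against 3.19%. Calls in both late and no early column were made for 41 of them (3.73%), against 2.02% of all elements other than scrambled and 0.51% of the controls. Calls in both early and no late column were made for 13 (1.18%), against 1.72% of all elements and 1.64% of the controls. The calls in late columns did not set NSC asc elements apart. Of 871 NSC unc elements, 61 were called in both late columns, a higher share than for NSC asc, and 52 (5.97%) in both early columns. Calls only late were made for 27 NSC unc, 22 IPC asc (3.14%) and 30 E14 elements (3.33%), beside 17, 6 and 15 only early. In the Mature asc elements the order was the reverse, with 6 called only late (2.03%) and 12 only early (4.07%). This order was not particular to them. The Scrambled controls had 5 only late and 16 only early, and Mature unc elements 9 and 25. IPC unc, IPC desc, Shadow and NSC desc elements also had more calls only early than only late. In the E14 class 65 elements (7.22%) were called in both late columns and 50 (5.56%) in both early columns.

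The share of elements above the level that 2.5% of the controls of the same column exceed was highest at E17 over all elements other than scrambled. It was 3.15%, 3.72%, 3.54%, 3.29% and 6.64% from E13 to E17, and at E17 it was 11.3% for NSC unc, 7.49% for NSC desc and 5.09% for the IPC class. For NSC asc elements it was 2.45%, 3.18%, 3.84%, 3.18% and 12.4% from E13 to E17. For E14 elements it was 4.22%, 5.67%, 3.78%, 4.22% and 11.2% at the same ages. E17 was the column with the narrowest controls, whose limit lay at 1.30 there, against 2.64 at E16 and 3.49 at E13. The part of this narrower limit in the higher share was not tested.

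For single elements, the Scrambled controls set wide limits. Limits with 2.5% of the Scrambled controls beyond each of them lay at -2.52 and 2.16 for late minus early. Above the upper limit were 45 NSC asc elements (4.09%), against 3.2% of all elements other than scrambled, and below the lower limit 13 (1.18%), against 2.15%. The counts were 34 above and 27 below for NSC desc, 28 and 17 for E14, 29 and 10 for IPC asc, and 9 and 17 (5.76%) for Mature asc. Taking limits of 10% on either side in each pair of ages, 21 NSC asc elements (1.91%) lay above the limit in both pairs, against 1.7% of all elements, and 8 (0.73%) lay below it in both, against 1.84%. Among the Scrambled controls, 1.64% lay above and 1.23% below in both pairs. Mature asc elements had 2 above and 11 below (3.73%). NSC desc elements had 24 above and 29 below (2.82%), and Mature unc elements 21 above and 35 below (2.85%).

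The size of a difference in one pair of ages said little about the other pair. Across elements other than scrambled, the correlation of E16 minus E13 with E17 minus E14 was 0.03 (10227 elements). It was 0.08 in the E14 class, 0.05 in the Mature class, 0.00 in the NSC class and 0.04 in the Scrambled controls. The 511 elements with the highest E16 minus E13, 4.35 on average, averaged 0.02 ± 0.06 in E17 minus E14, where all elements averaged 0.04. The 511 lowest, -4.39 on average, averaged -0.10 ± 0.07. The 45 E14 elements lowest in E16 minus E13 averaged -0.43 ± 0.21 in E17 minus E14. In the other direction, the 45 lowest in E17 minus E14 averaged -0.01 ± 0.43 in E16 minus E13, and the 49 Scrambled controls chosen so averaged -0.47 ± 0.32. The 15 Mature asc elements lowest in E17 minus E14 averaged -1.52 ± 0.55 in E16 minus E13. The 15 highest averaged -0.92 ± 0.89 there, beside -0.38 for the whole label, and the correlation of the pairs in this label was 0.03. For NSC asc elements, the 55 lowest in E16 minus E13 averaged 0.37 ± 0.18 in E17 minus E14 and the 55 highest 0.29 ± 0.20, beside 0.28 for the whole label. Levels themselves correlated weakly between columns. For the E14 class, r was 0.16 between E13 and E14, 0.12 between E16 and E17 and 0.20 between E14 and E17. For NSC asc elements it was 0.01, 0.10 and 0.12, and for the controls 0.03, 0.02 and -0.03. Over all elements other than scrambled it was 0.07, 0.11 and 0.11.

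**Figure D4:**
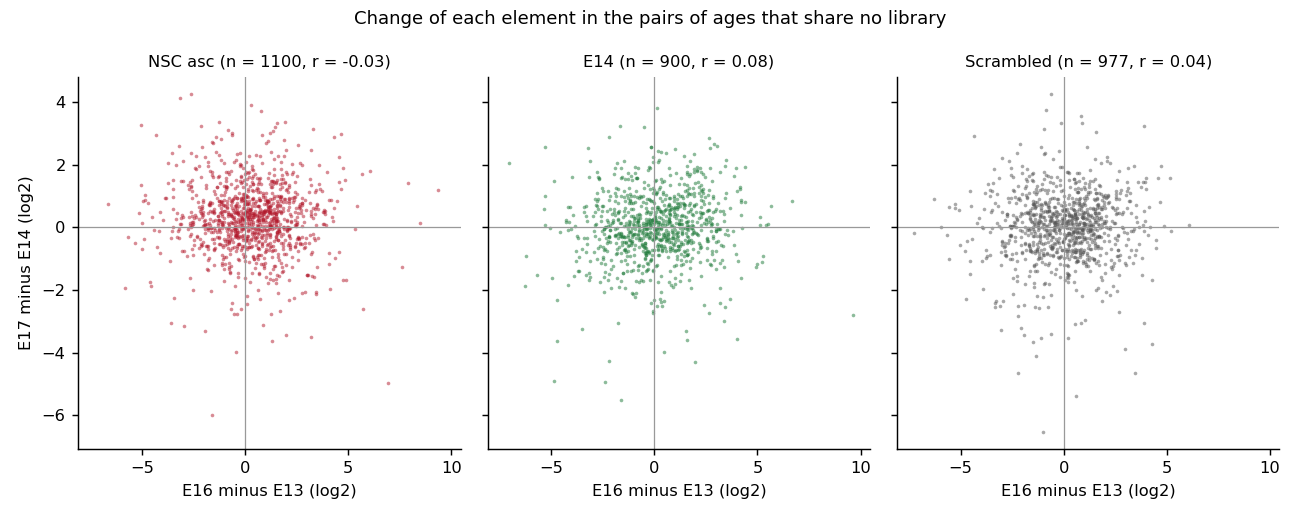
Difference of each element in E16 minus E13 (horizontal axis, log2) and in E17 minus E14 (vertical axis, log2) for NSC asc, E14 and Scrambled elements, 1 point per element. The points show little or no slope in the 3 panels, with correlations of -0.03, 0.08 and 0.04, while those of NSC asc average above 0 on both axes.

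The E14 elements with the largest differences are described next. For each direction, the 12 largest were taken among elements whose late and early values did not overlap, so their size and direction follow from the choice and carry no test. They are located by the protein-coding gene that holds them or lies nearest, which is a position and not a statement on which gene they regulate. Coordinates are those of mm10.

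Of the 12 elements lower in late cells, the one with the largest difference lay 0.64 kb from Lamp5, which encodes a lysosome-associated membrane protein of neurons (chr2:136051124-136051389). It stood at 3.65, 3.39, 0.15, -1.22 and -1.50 from E13 to E17, a late minus early difference of -4.88. E16 minus E13 was -4.87 and E17 minus E14 was -4.89. The authors' adjusted p called it in both early columns and in no late one. In intermediate progenitors, which the choice did not use, its difference was -3.66, and the Shadow element of the same coordinates differed by 1.45.

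An element 63.79 kb from Hes1, the Notch target that keeps neural stem cells undifferentiated, stayed high one age longer (chr16:30001301-30001566). It stood at 2.33, 2.95, 2.73, -1.16 and -0.28 from E13 to E17 (late minus early -3.36). The pairs of ages gave -3.49 and -3.23, and intermediate progenitors 0.64. An element within Ina, an intermediate filament gene of neurons, also stood high at E15 (1.05, 2.82, 2.14, -1.15 and -1.45 from E13 to E17). In intermediate progenitors it differed by -2.05.

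The element near Gm42323 stood at 2.14, 2.51, -2.08, -2.57 and -1.13 from E13 to E17, already low at E15. The element within Nav1, which encodes a protein of growing neurites, stood at 2.33, 2.38, -0.85, -2.39 and 0.07. Both had early values close to each other. In others, 1 early age carried most of the difference. The element within Nav2 stood at -0.49 at E16 and -1.32 at E17, against 5.77 at E13 but 0.55 at E14. The element near Nectin3, a cell adhesion gene, stood at -2.11 at E16 and -0.98 at E17, against -0.51 at E13 and 4.51 at E14. The element within Plekha6 stood at -0.41 at E16 and 1.24 at E17, against 4.65 at E13 and 1.25 at E14, so that E17 minus E14 was 0.00. The elements within Nos1ap, within Vangl2 and near Gm829 differed by -3.59, -3.28 and -3.66.

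Of the 12 elements higher in late cells, the one within Rapgef4 had the most even values inside each group (chr2:72122473-72122738). Rapgef4 encodes a cAMP-activated exchange factor of small GTPases. The element stood at -1.15, -1.18, 1.15, 1.51 and 1.68 from E13 to E17, a late minus early difference of 2.76, with 2.66 and 2.87 in the pairs. It was called in both late columns and in no early one. In intermediate progenitors it differed by 0.81.

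The element within Sparcl1, which encodes a matrix protein secreted by astrocytes and radial glia, stood at -2.11, -0.57, 0.53, 1.76 and 1.08 from E13 to E17 (2.76; chr5:104110347-104110612). The pairs gave 3.87 and 1.65, and intermediate progenitors -0.18. The element 104.7 kb from Moxd1 stood at -2.24, -0.57, 0.84, 1.22 and 1.58, in the order of age. The element within Dnajb14, a co-chaperone gene, stood at -3.01, -0.90, 0.97, 0.05 and 1.71. In these 3 elements all values from E15 on lay above both early values.

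An element 52.62 kb from Sox9, a transcription factor gene of neural stem cells and glia, stood at -2.33, 0.45, 0.02, 3.06 and 0.54 from E13 to E17 (2.74; chr11:112840376-112840641). Its difference came from E16 and E13, since E17 minus E14 was 0.08. The same held for the element within Vcam1, an adhesion molecule gene, with 5.52 for E16 minus E13 and 0.11 for E17 minus E14. It also held for the element 174.9 kb from Rps12, with 5.14 and 0.33. The element near Sfr1 had the largest late minus early difference upwards (3.77), with 4.80 at E16 and 1.82 at E17, against -1.89 at E13 and 0.97 at E14. The elements near Dapl1, Olfr31 and Pinx1 and within Ankrd6 differed by 3.17, 3.17, 2.92 and 2.73.

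Among the 24 elements, 7 of the 12 higher and 8 of the 12 lower in late cells passed the pair limits in both pairs of ages, which the choice itself favours. In intermediate progenitors, which took no part in the choice, 6 of the 12 higher elements were also higher late, with a median difference of -0.08. Of the 11 lower elements with values there, 5 were lower late, with a median of 0.15. Shadow elements of the same coordinates differed by a median of 0.38 for 9 of the elements higher late and of 0.28 for 11 of those lower late. At E15, also outside the choice, the median was 0.43 for the elements higher late and 0.74 for those lower late.

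**Figure D5:**
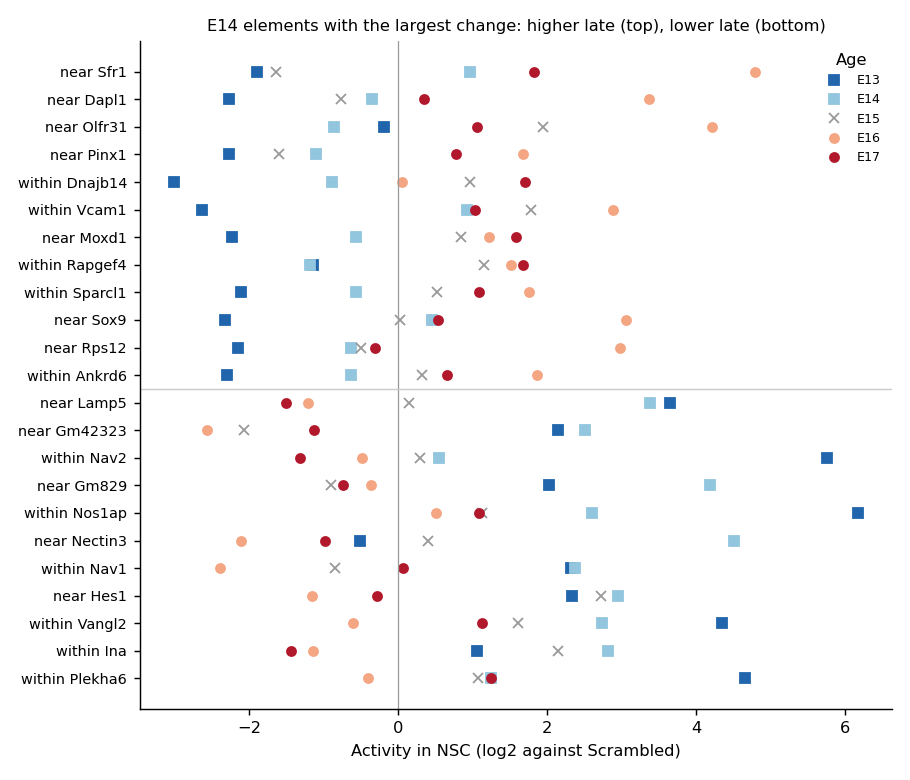
Activity of 23 E14 elements in neural stem cells (horizontal axis, log2 against the Scrambled controls) at each of 5 ages, for elements chosen as higher late (upper rows) or lower late (lower rows). Values of the element near Lamp5 form 2 tight groups, at -1.22 and below in late cells and at 3.39 and above in early cells, while those of elements such as the one near Nectin3 are spread over several units within a group.

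E14 elements were also grouped by the gene they lie in or nearest to. The list of late and gliogenic genes of neural stem cells had 17 E14 elements at 9 genes. Both late values lay above both early values for 5 of the 17 and below for 1, beside 20.0% above and 17.7% below of all 900 E14 elements. The median difference was 0.19, against 0.08 for all E14 elements. Beyond the upper limit were the element within Sparcl1 and the one nearer to Sox9. The other Sox9 element, 195.6 kb away, differed by -0.86. The element with both late values below both early values lay within Tcf7l2, a Wnt effector gene, and differed by -1.07. The other Tcf7l2 element differed by 0.19. Below the lower limit was an element within Nfia, a transcription factor gene of the switch to glia, at 5.51, 1.02, 1.54, 0.22 and 1.10 from E13 to E17 (-2.61), whose groups overlapped. The remaining 3 Nfia elements, of which the farthest lay 296.6 kb away, differed by -0.65 to 0.71. An element 42.92 kb from Hopx, a marker of late radial glia, differed by 1.74, with 1.03 and 1.34 at E16 and E17, against -1.93 and 0.82 at E13 and E14. An element 32.58 kb from Olig2, the oligodendrocyte factor gene, differed by 1.54, with overlapping values. The 4 Zbtb20 elements, of which the farthest lay 259.5 kb away, differed by -1.01 to 0.67.

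The list of early genes had 4 E14 elements, at Dmrta2, Emx2, Hmga2 and Lhx2, and the median was -0.13. The groups did not overlap for 1 of the 4, beside the 20.0% above and 17.7% below of all E14 elements. The element within Hmga2, a chromatin protein gene of young stem cells, stood at 4.24, 2.73, 0.99, 3.30 and 0.51 from E13 to E17 (-1.58), with overlapping groups. The element within Lhx2 was the one of the 4 whose late values both lay above its early values (1.12 and 0.78 late, -0.38 and -0.37 early).

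The list of radial glia and progenitor genes had 21 elements at 14 genes, with 2 above, 2 below and a median of -0.16. Among all E14 elements, 20.0% lay above and 17.7% below. Beside the element near Hes1, beyond the limits lay an element within Fgfr2, the growth factor receptor gene, and one 237.6 kb from Id4. Id4 encodes an inhibitor of helix-loop-helix factors. The Fgfr2 element stood at -1.53, -2.37, 0.54, 1.88 and -0.40 from E13 to E17 (2.69), and the Id4 element at -0.80, -0.35, -1.35, 3.60 and 0.47 (2.61). The other Fgfr2 element differed by 0.62. Pax6, the gene used for the sort, had 5 elements within its span, which differed by -1.07 to 0.01. The groups did not overlap for 1 of the 5. It was lower late, at -0.19 and 0.22 at E16 and E17, against 0.58 and 1.59 at E13 and E14. The 3 elements nearest to Sox2, which lay 214.7, 426.1 and 90.8 kb away, differed by -1.02, -0.43 and 1.31.

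The list of neurogenic commitment genes had 4 elements, nearest to Eomes, Gadd45g and Neurod2, of which the Gadd45g element lay 265.2 kb away. All 4 lay higher late, by 0.47 to 0.89, where the median of all E14 elements was 0.08. E16 minus E13 and E17 minus E14 disagreed in sign for the Eomes element (-0.49 and 1.44) and 1 Neurod2 element (1.91 and -0.13). They agreed in sign for the remaining elements. The groups did not overlap for 1 of the 4, beside 20.0% above and 17.7% below of all E14 elements. The list of layer identity and postmitotic neuron genes had 13 elements at 7 genes, with 2 above, 3 below and a median of 0.03, against the same shares of all E14 elements. No element of these 2 lists lay beyond the limits.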

How the data were processed

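Reporter DNA and RNA were sequenced for 18 libraries of neural stem cells that enter here. The submitters' processing notes name cutadapt and the build mm10. No source used here names the barcode counting or the tool that made the activity values. Per the file headers and the values, the authors deposited 1 activity score (never negative, linear scale) and 1 adjusted p-value per element, cell type and age, with biological samples combined.

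Activity is log2(score / Scrambled median + 0.1) minus the Scrambled mean, all within a column, where the pseudocount of 0.1 understates differences of low values. Late minus early is the mean of E16 and E17 minus the mean of E13 and E14. Errors are over elements, and 95% intervals use the normal distribution. Counts were set against limits from the Scrambled controls, at 2.5% on either side, or 10% in each pair of ages. Depth is unknown. Model fits across replicates were not possible with combined values, so no test was made. The late minus early difference and its limits were tested on simulated data, with Scrambled values redrawn and a known late shift added to some elements. The other steps were not tested in this way.

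E14 elements were placed by the coordinates in their names in or next to 21900 protein-coding genes of the RefSeq annotation of GRCm38.p6. The 12 elements with the largest difference in each direction, among those with groups that do not overlap, and elements of the gene lists beyond the limits were named. Of these 24 elements, 1 is not reported here. Members, gene lists and settings were chosen with earlier results of these data known. Python 3.11.15, numpy 2.4.6 and pandas 2.3.3 were used.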

Additional observations from a re-analysis of the deposited data

Results flagged for a closer look

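In 6 of the 23 E14 elements named above, both pairs of ages moved one way in neural stem cells and both moved the other way in intermediate progenitors. The element near Gm829 had no value there. The choice had fixed the direction of both pairs in neural stem cells. In those cells both pairs rose for 28.2% of the Scrambled controls and fell for 21.9%. The shares in intermediate progenitors were not computed, so whether 6 exceeds the background is unknown. The difference between the cell types was not tested, since each column is 1 combined value, and the elements had been chosen for their change in neural stem cells. Late minus early was 3.77 in neural stem cells and -1.36 in intermediate progenitors for the element near Sfr1, a gap of 5.13. It was 3.17 and -0.37 near Dapl1 (gap 3.54), 2.92 and -1.53 near Pinx1 (gap 4.45), and 2.74 and -0.69 near Sox9 (gap 3.43). Among the elements lower in late neural stem cells, it was -4.06 and 3.16 within Nav2 (gap -7.23) and -3.59 and 3.28 within Nos1ap (gap -6.87). The elements within Nav2 and Nos1ap stood at 5.77 and 6.18 in neural stem cells at E13, the column with the widest spread of controls; the part of that column in the gap was not tested.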

How the results depend on the processing

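No paired analysis was possible because the authors combined the biological samples of each age into 1 column, which carries no replicate number. The difference of NSC asc elements stayed above 0 under every alternative run, but 4 of the 21 class, label, gap and count results moved with the scaling by SD and 6 with an age left out. A change counts as a move here where it exceeded the 95% interval over elements, or 1.5 times for a count. Pseudocounts of 0.01 and 0.5 and centring on the Scrambled median moved none of the class, label and count results.

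With each column divided by its Scrambled SD, late minus early was 0.24 for the NSC class, 0.15 for E14, 0.41 for NSC asc and 0.23 for NSC unc. As medians over elements it was 0.19 for the NSC class, 0.079 for Mature, 0.19 for Shadow and 0.072 for Mature unc, where the controls stood at 0.04.

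Keeping elements with a mean activity above the Scrambled mean shifted all sets downwards, the controls to -0.34. Of the values above 0 in the report, the sign turned for the NSC (-0.030), IPC (-0.13) and Shadow (-0.19) classes and for NSC unc (-0.042), IPC asc (-0.0061), IPC unc (-0.081) and Mature desc (-0.19), and also for Mature (-0.32), E14 (-0.14), NSC desc (-0.25) and IPC desc (-0.26), whose main values lay within the interval around 0. All of these lay above the controls so chosen. The values were 0.17 for NSC asc, -0.62 for Mature asc and -0.35 for Mature unc. The gap of NSC asc over desc was 0.41. Elements above and below the limits numbered 156 and 144, and in both pairs of ages 90 and 84.

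Among elements called at E15, a setting chosen after seeing the data, late minus early was 0.030 for the NSC class, 0.070 for IPC, -0.13 for Mature, -0.20 for E14 and 0.31 for Shadow. By label it was 0.21 for NSC asc, -0.19 for NSC desc, 0.29 for IPC asc, 0.069 for IPC unc, -0.083 for IPC desc, -0.11 for Mature unc and -0.12 for Mature desc. The sign turned for Mature, E14, NSC desc, IPC desc and Mature desc. The gap of asc over desc was 0.40 (NSC), 0.37 (IPC) and -0.10 (Mature), and 21 elements lay above and 40 below the limits. The cause of these moves was not tested. Stricter limits of 1% left 149 above and 127 below, and pair limits of 5% left 65 and 63, by construction.

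Leaving out each age in turn gave 0.20 to 0.37 for NSC asc, 0.043 to 0.24 for the NSC class, -0.11 to 0.14 for NSC desc and 0.022 to 0.20 for NSC unc. It gave 0.063 to 0.17 for the IPC class, 0.061 to 0.23 for IPC unc, 0.037 to 0.14 for Shadow, -0.32 to -0.16 for Mature asc, -0.46 to -0.20 for the gap of Mature asc over desc and 0.18 to 0.36 for that of NSC asc over desc. The values nearest to 0 came without E13, except for NSC desc (without E16) and the NSC gap (without E17). A single age left out allows no count over both pairs. For the 23 named elements, 28 of 202 values under alternatives moved by more than the SD of the controls. The width of the controls, above all at E13, limits what single elements can show.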
